A study of Oryza sativa with 51 samples.

Results

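The first and the second day of a 48 h field series were compared in flag leaves of rice at grain filling, the stage at which this uppermost leaf feeds the developing panicle. Flag leaves of 3 lines were sampled every 3 h from Zeitgeber time (ZT) 0: the hybrid LY2186 and its parents, SE21s (male-sterile) and MH86 (the restorer), all from the field under the same conditions. Each library of the second day (ZT24 to ZT45) was set against the library of the same line and clock hour on the first day (ZT0 to ZT21), which gave 24 pairs from 48 of the 51 libraries. The 3 libraries of ZT48 were left out of the pairs and used once, against ZT24. There was 1 library per line and time. The sources do not give the light schedule or the weather, and they do not say whether a library came from 1 plant or several. Each day occurred once, so a p-value here measures how steadily genes differed over the pairs, and the lines of a clock hour shared the same field conditions. An effect of 1 more day of leaf age, of weather or of handling on the second day cannot be told apart.

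A leaf at this stage fixes carbon by day, stores part of it as starch, exports sucrose to the grain and, with age, takes its photosynthetic apparatus apart and moves the nitrogen out. Light-harvesting proteins bind chlorophyll around the photosystems, and the transcripts of their genes cycle strongly over the day. A circadian clock of interlocked transcription factors times these programmes, and temperature, light and water status act on many of the same genes.

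On the second day 13 of 16 antenna and photoprotection genes were lower, as were 6 of 13 chlorophyll synthesis genes and 6 of 11 carbon fixation genes. None of these lists had a gene called higher. In turn 8 of 15 starch synthesis genes, 7 of 12 sucrose genes, 5 of 9 nitrogen genes and 4 of 5 genes of the unfolded protein response were higher, and 1 of these, of the sucrose list, was lower. The differences were mostly small. Of 16857 genes tested, 7080 differed between the days by limma at an adjusted p below 0.05, 4298 of them higher and 2782 lower on the second day. The calls thus made up 42% of the genes tested, with 25.5% higher and 16.5% lower. The median absolute difference was 0.15 on the log2(FPKM + 0.5) scale used throughout, which understates changes of low genes, and 336 calls reached 1.5-fold (163 higher, 173 lower). The higher share of the calls was 60.7% as deposited, 46.3% after median-ratio scaling and 56.4% after quantile scaling, so the balance of directions depended on the scaling. The lines of a clock hour shared conditions, and with the 3 lines averaged first (8 pairs, 1 per clock hour) 3433 genes were called. With clock hours 15, 18 and 21 left out together, 1337 genes were called, without MH86 3304, and in a fit that ignored the pairs 1560. The daily programme itself recurred: 22 of the 24 second-day libraries correlated best, across genes, with the first-day library of their own line and clock hour. The exceptions were ZT42 in LY2186 and MH86, where r was 0.948 and 0.951 with ZT21 but 0.926 and 0.915 with ZT18.

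The labelled tissue was checked with marker genes. Summed levels of 16 antenna and photoprotection genes ran from 239 to 71200 FPKM per library on the first day and from 141 to 48600 FPKM on the second. Of 7 grain storage genes 3 passed the filter of a mean of 1 FPKM. The list summed to a median of 29.9 FPKM per library (highest 71.4) on the first day and 32.3 FPKM (highest 50) on the second. AGPL2, a gene of starch synthesis, alone had medians of 25.8 and 27.4 FPKM on the 2 days. The storage protein genes were low, with medians of 0.705 and 0.89 FPKM for GluA1 and 2.79 and 3.15 FPKM for GluA2. Of 10 floral organ genes 4 passed, with sums of 7.92 to 47.3 and 10.2 to 40 FPKM. None of these markers is listed at 0 in every library, and none of the 7 tested differed over the 24 pairs. Relative depth, judged from low values, was 1 to 2.52 on the first day and 1.23 to 2.29 on the second (lowest library set to 1), and fragment counts were not analysed here. In whole leaves, fewer cells of a kind and less RNA per cell cannot be told apart.

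Lists of named genes, 26 in all, were examined by function. They hold 271 loci, of which 268 are in the table, 216 were tested and 91 were called. That is 42.1% of the members tested, near the 42% of all genes, while single lists ran from 13 of 16 antenna genes to 0 of 7 aquaporin genes. Symbols stand for loci from general knowledge of rice genes, because the table pairs no identifier with a name. Coordinates and sequences are not given.

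Most light-harvesting genes were lower on the second day. Of 16 antenna and photoprotection genes 13 fell and 0 rose, against 16.5% and 25.5% of all genes, and the median difference was -0.55 (-0.59 relative to the median of all genes). All 16 estimates were below 0 as deposited and under both other scalings. The list counts 6 genes lower when clock hours 15, 18 and 21 are left out. LHCB4, LHCB5 and LHCB6 encode the minor antenna proteins of photosystem II, and LHCA1 to LHCA4 the antenna of photosystem I. LHCB5 (LOC_Os11g13890) ranged over the day from 1.03 to 7630 FPKM (median 278) on the first day and from 0.435 to 5080 FPKM (median 264) on the second. Its level cycled so widely that the days overlap, but within pairs it was lower on the second day in 21 of 24, by -0.47 ± 0.08 (mean log2 difference ± SE, 24 pairs, adjusted p = 0.000356). LHCA4 (LOC_Os08g33820) fell by 0.56 ± 0.11 on the log2 scale (adjusted p = 0.000573) and LHCB4 (LOC_Os07g37240) by 0.79 ± 0.15 (adjusted p = 0.0006), each lower in 21 pairs. PSBS1, the sensor protein of non-photochemical quenching, fell by 0.66, while LHCA3 (-0.25), LHCA5 (-0.05) and ZEP (-0.03) did not pass. Antenna genes are close copies of one another, so reads may be shared among them.

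**Figure D1:**
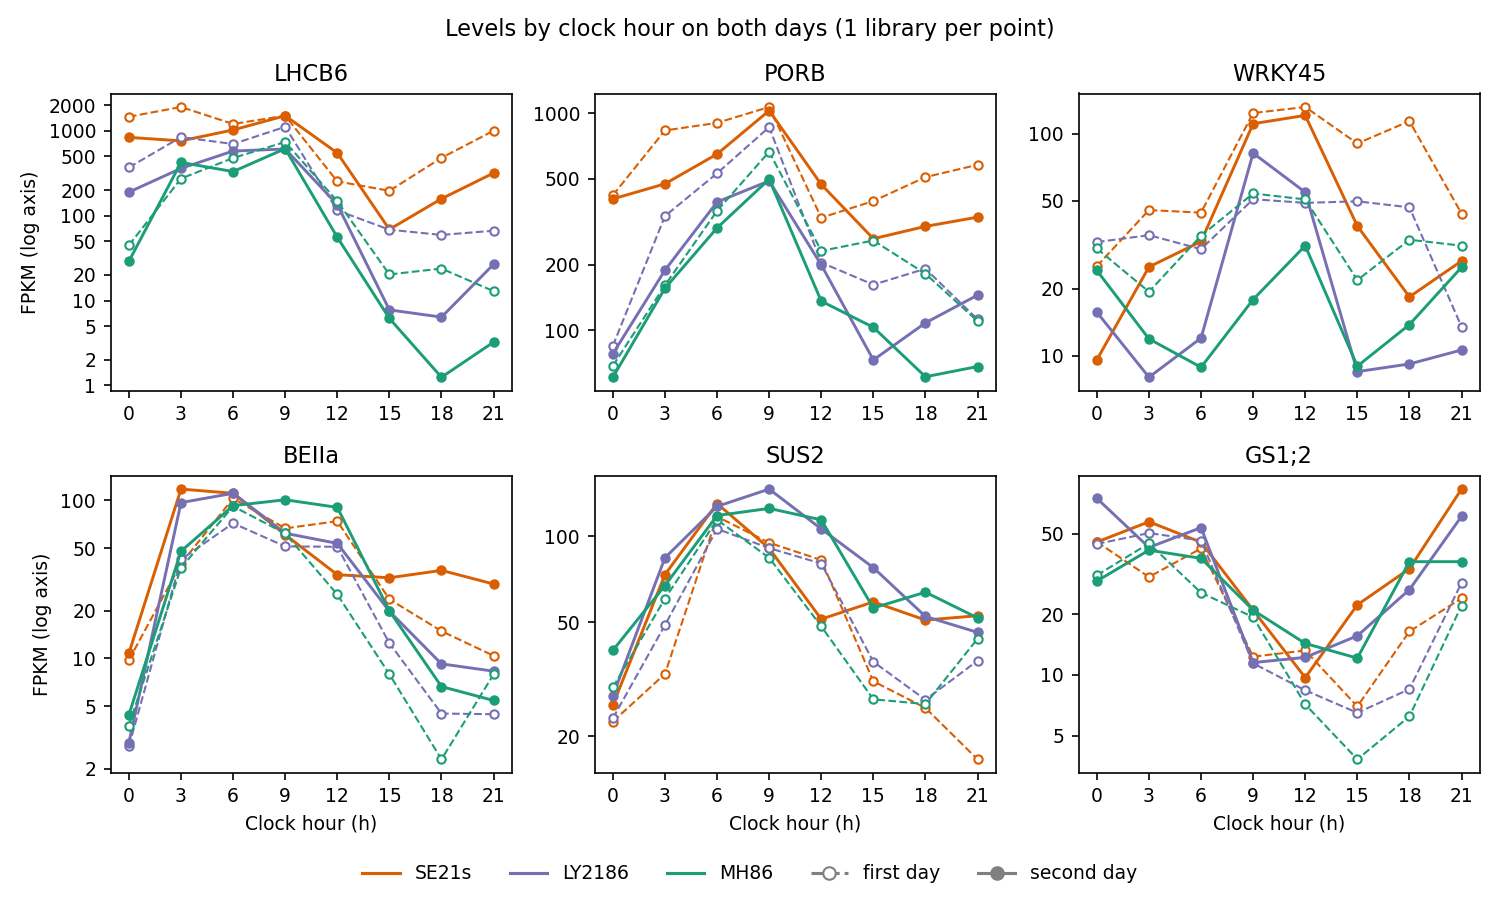
Levels of 6 named genes in FPKM (log axis) against clock hour in h. Colours mark the lines, dashed lines with open points the first day and solid lines with filled points the second, with 1 library per point. LHCB6 at clock hour 18 stood at 479, 59.2 and 23.8 FPKM on the first day and at 158, 6.38 and 1.25 FPKM on the second in SE21s, LY2186 and MH86.

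LHCB6 (LOC_Os04g38410) had the largest fall of the 16 antenna and photoprotection genes at clock hour 18. At clock hour 18 it went from 479 to 158 FPKM in SE21s, from 59.2 to 6.38 FPKM in LY2186 and from 23.8 to 1.25 FPKM in MH86. All 3 lines were lower on the second day, although the days overlap because the lines differ in level. The difference was -2.84 ± 0.43 there (3 pairs, adjusted p = 0.0016), -2.07 ± 0.43 at clock hour 15, -1.60 ± 0.43 at clock hour 21 and -0.02 at clock hour 12. The calls at clock hours 15, 18 and 21 were lost without LY2186, without MH86 at clock hour 15 and without SE21s at clock hour 21. Those at clock hours 15 and 21 were also lost with no filter on low values and without clock hour 6. That at clock hour 15 was lost without clock hour 0 as well. Over all 24 pairs it was -1.08 ± 0.22 (adjusted p = 0.000912), lower in 20.

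The calls among chlorophyll synthesis and carbon fixation genes were also lower. Of 13 chlorophyll synthesis genes 6 fell and 0 rose (median -0.15), and of 11 carbon fixation genes 6 fell and 0 rose (median -0.24). Among all genes 42% were called, 16.5% lower and 25.5% higher. With clock hours 15, 18 and 21 left out, 2 of each list were still lower, and without MH86 3 of each. Without LY2186 3 carbon fixation genes were lower, as with the mean of the lines. PORB (LOC_Os10g35370), a light-dependent protochlorophyllide reductase, had a median of 333 FPKM (68.4 to 1070) on the first day and 232 FPKM (60.6 to 1030) on the second. It was lower in 22 of 24 pairs, by -0.51 ± 0.10 (adjusted p = 0.000703). CRD1 (LOC_Os01g17170), a subunit of the cyclase that closes the fifth ring of chlorophyll, fell by 0.38 ± 0.09 and DVR (LOC_Os03g22780), which reduces its vinyl group, by 0.51 ± 0.12. In carbon fixation GAPA (LOC_Os04g38600), a chloroplast glyceraldehyde phosphate dehydrogenase subunit, fell from a median of 233 to 159 FPKM, by 0.53 ± 0.12 on the log2 scale (adjusted p = 0.00204). PGK (LOC_Os05g41640), phosphoglycerate kinase, fell by 0.26 ± 0.06, and cpFBPase (LOC_Os03g16050), the chloroplast fructose bisphosphatase, by 0.26 ± 0.07, each lower in 21 pairs. Rubisco activase, RCA, is listed at 0 in both days' libraries at clock hour 3 of LY2186 and MH86 and in SE21s at ZT24 and ZT27. These are doubtful values, beside 24000, 11800 and 6440 FPKM at ZT0 in SE21s, LY2186 and MH86. The estimate of RCA is not given by itself, but RCA stayed among the 11 tested genes behind the list counts and median.

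Most calls among genes of starch and sucrose metabolism were higher on the second day. Of 15 starch synthesis genes 8 rose and 0 fell (median 0.27), and of 9 starch breakdown genes 5 rose and 0 fell (median 0.19). In the sucrose list 7 of 12 rose and 1, SPS11, fell (median 0.29). Among all genes 25.5% were called higher and 16.5% lower. After median-ratio scaling 1 starch synthesis gene was lower, and without clock hours 15, 18 and 21 none of these 3 lists had a call. Without LY2186 4 starch synthesis genes rose, and 3 starch breakdown and 4 sucrose genes rose without LY2186 and likewise without MH86. SPS11 lost its call without MH86 and without clock hour 0, 15, 18 or 21. BEIIa (LOC_Os04g33460), a starch branching enzyme, rose from a median of 24.5 FPKM (2.30 to 103) to 35.0 FPKM (2.93 to 118), higher in 21 pairs, by 0.57 ± 0.14 (adjusted p = 0.00265). The starch synthase SSIIIb (LOC_Os04g53310) rose by 0.42 ± 0.09 and the branching enzyme BEI (LOC_Os06g51084) by 0.27 ± 0.06. On the breakdown side, PHOH (LOC_Os01g63270), a glucan phosphorylase, rose by 0.32 ± 0.06 (adjusted p = 0.000502), PWD (LOC_Os12g20150), which phosphorylates starch for breakdown, by 0.40 ± 0.09, and DPE2 (LOC_Os07g46790), which uses maltose, by 0.35 ± 0.08. The calls in both starch lists thus had the same direction.

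SUS2 (LOC_Os06g09450), a sucrose synthase, rose from a median of 40.2 FPKM (16.6 to 117) to 65.5 FPKM (25.7 to 146). It was higher in 22 of 24 pairs, by 0.58 ± 0.10 (adjusted p = 0.000438), including all 8 pairs in LY2186 and MH86. Of the sucrose phosphate synthases, which make sucrose in leaf cells, SPS6 (LOC_Os06g43630) rose by 0.32 ± 0.07 and SPS2 (LOC_Os02g09170) by 0.22 ± 0.05, each in 21 pairs. The sucrose exporters SWEET13 and SWEET14, chosen after their values were seen, averaged differences of 0.67 and 0.82, with wide spreads. The pairs of SWEET13 ran from -2.99 to 3.11, with 6, 5 and 6 of 8 higher in SE21s, LY2186 and MH86. Those of SWEET14 ran from -1.22 to 2.74, with 6, 6 and 8 of 8 higher. At clock hour 18 SWEET14 went from 7.86 to 34.6 FPKM in SE21s, from 7.14 to 26.2 FPKM in LY2186 and from 4.09 to 30.1 FPKM in MH86. Every second-day value of that hour lay above every first-day value. The transporter genes SUT1, SUT2 and SUT4 of the sucrose list had first-day medians of 47.3, 29.9 and 8.41 FPKM. Their second-day medians were close to these, at 47.5, 31.4 and 9.13 FPKM.

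Among nitrogen genes the calls were higher as well. Of 9 nitrogen genes 5 rose and 0 fell, against 25.5% and 16.5% of all genes. The median of 0.51 was the highest of the 26 lists. Without clock hours 15, 18 and 21 the list had no call. GS1;2 (LOC_Os03g12290), a cytosolic glutamine synthetase, rose from a median of 20.7 FPKM (3.82 to 50.3) to 34.9 FPKM (9.69 to 83.0), by 0.71 ± 0.14 (19 of 24 pairs, adjusted p = 0.000827). Fd-GOGAT (LOC_Os07g46460), the ferredoxin-dependent glutamate synthase, rose from a median of 419 to 540 FPKM, by 0.37 ± 0.08, and NADH-GOGAT1 (LOC_Os01g48960), its NADH-dependent counterpart, by 0.52 ± 0.13. GS1;1 (0.51) and the asparagine synthetase ASN2 (0.22) rose too. The chloroplast glutamine synthetase gene GS2 did not pass (0.05), with medians of 438 and 451 FPKM and 12 of 24 pairs higher. NIA1 (0.52), NiR (0.85) and ASN1 (-0.30), of nitrate reduction and asparagine synthesis, did not pass either. NADH-GOGAT1 lost its call without MH86.

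A few chlorophyll breakdown genes rose, in a list whose share of calls was near the 42% of all genes called (25.5% higher, 16.5% lower). Of 7 genes 3 rose and 0 fell (median 0.17): NYC3 (LOC_Os06g24730), a hydrolase-fold protein needed for chlorophyll loss in senescence, by 0.41 ± 0.09 (adjusted p = 0.00118), NAP (LOC_Os03g21060), a NAC factor of leaf senescence, by 0.31 ± 0.10, and PAO (LOC_Os03g05310), pheophorbide a oxygenase, by 0.17 ± 0.05. SGR (0.36), NYC1 (-0.03), NOL (-0.03) and RCCR1 (-0.04) did not pass. Without clock hour 15, without LY2186 and with the mean of the lines 1 member was called, since NAP and PAO both missed the threshold there. NAP also missed it without clock hour 18, and PAO after median-ratio scaling, and without clock hours 15, 18 and 21 together no member was called.

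**Figure D2:**
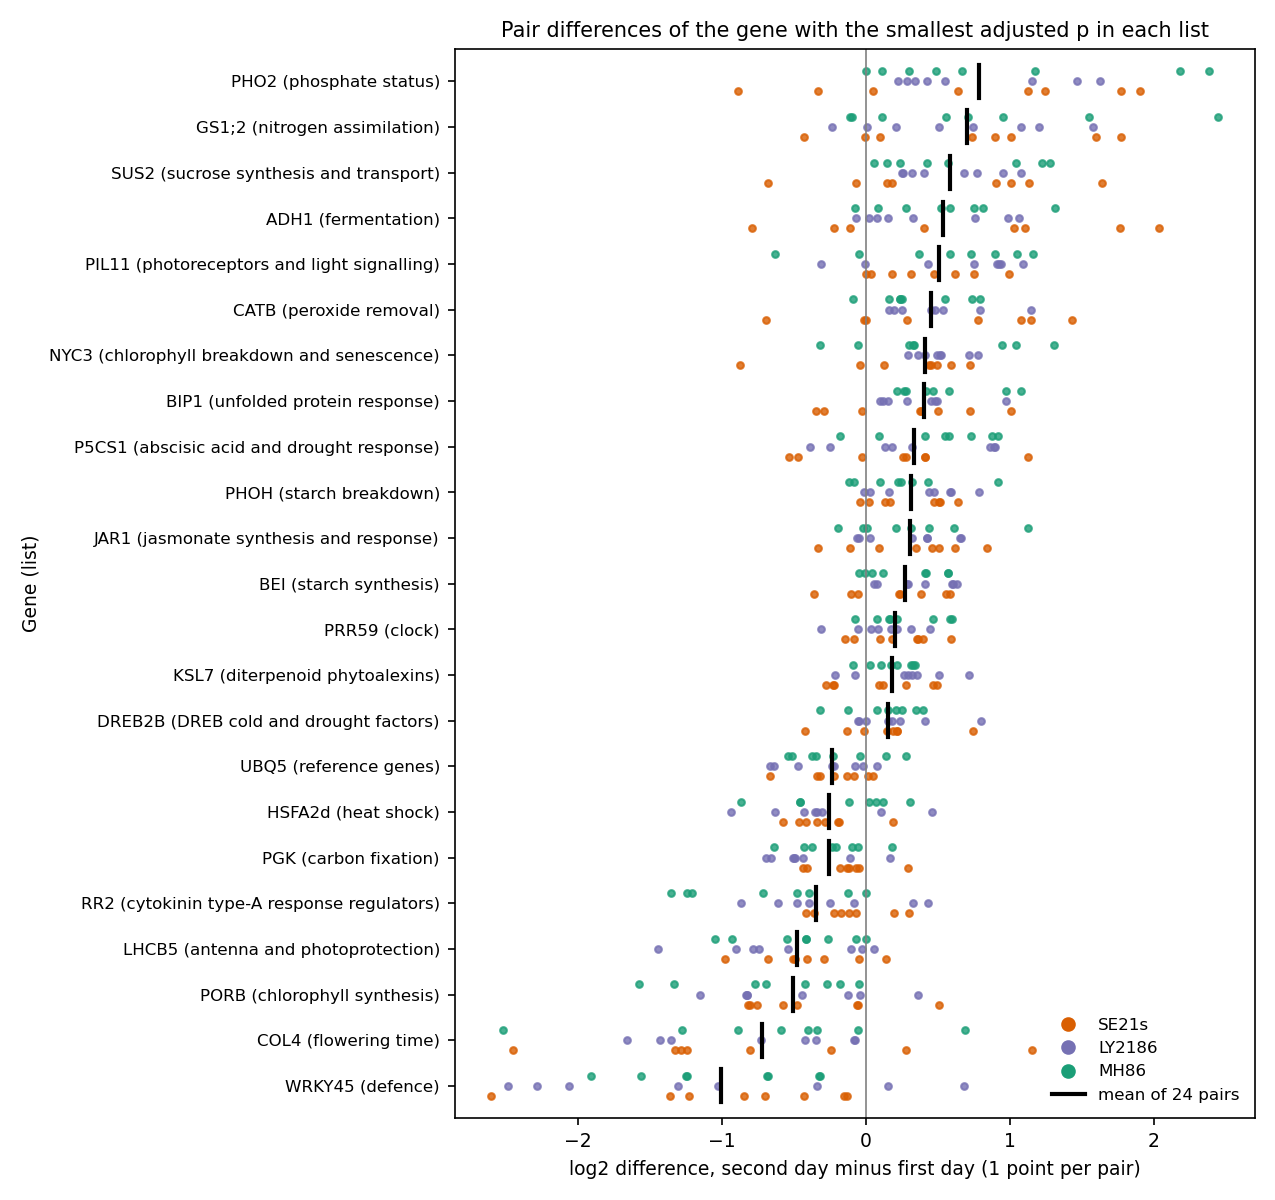
Log2 differences of each of the 24 pairs (second day minus first day, 1 point per pair, coloured by line) for the gene with the smallest adjusted p in each list that had a call. The black bar is the mean over 24 pairs. WRKY45 averages -1.0 and PHO2 0.79, and most genes have pairs on both sides of 0.

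Few clock genes were called over the 24 pairs. Of 13, 2 rose and 0 fell, against 25.5% and 16.5% of all genes (median 0.12, against 0.04 for all genes). PRR59 (LOC_Os11g05930), a pseudo-response regulator, rose by 0.20 ± 0.05 (adjusted p = 0.00294), and the ZTL-like gene LOC_Os02g05700, a candidate blue light receptor, by 0.20 ± 0.06. LHY, the morning repressor of the clock, and GI, an evening component, did not pass over 24 pairs (0.12 ± 0.08, adjusted p = 0.245, and 0.12 ± 0.09, adjusted p = 0.262). At clock hour 21 alone LHY did pass, as given below. Without MH86, and without clock hours 15, 18 and 21 together, the list had no call, and without clock hour 15 or 18 or LY2186 it had 1. In the flowering list COL4 (LOC_Os02g39710), a CONSTANS-like repressor, fell from a median of 15.4 FPKM (1.11 to 123) to 10.5 FPKM (1.68 to 48.6), lower in 21 pairs, by -0.72 ± 0.17 (adjusted p = 0.00214). Hd3a (LOC_Os06g06320), which encodes the florigen, rose by 0.46 ± 0.16 in 16 pairs (adjusted p = 0.0235), but missed the threshold when clock hour 15, 18 or 21, SE21s or LY2186 was left out. In the light signalling list 3 of 11 rose and 1 fell, against 25.5% and 16.5% of all genes. PHYA (LOC_Os03g51030), the far-red light receptor phytochrome A, rose by 0.36 ± 0.08 in 20 pairs, PIL11 (LOC_Os12g41650), a phytochrome-interacting-factor-like gene, by 0.51 ± 0.09 (adjusted p = 0.000493), and PIL13 (LOC_Os03g56950), of the same family, fell by 0.27 ± 0.06, a call lost without MH86. After quantile scaling 5 of the 11 rose, and after median-ratio scaling 2 fell.

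Chaperone genes of the endoplasmic reticulum were higher, and heat shock genes had calls in both directions. Of 5 tested genes of the unfolded protein response, which adjusts folding capacity in the endoplasmic reticulum, 4 rose and 0 fell (median 0.24). BIP1 (LOC_Os02g02410), its luminal chaperone, rose from a median of 44.8 FPKM (highest 114) to 60.3 FPKM (highest 222), in 21 pairs, by 0.41 ± 0.07 (adjusted p = 0.00049). Calreticulin, CRT (LOC_Os07g14270), and calnexin, CNX (LOC_Os04g32950), lectin chaperones of the same compartment, rose by 0.24 ± 0.04 and 0.27 ± 0.05. With clock hours 15, 18 and 21 left out 3 of the 4 were still called. The list member bZIP50 had medians of 9.18 FPKM on the first day and 9.94 FPKM on the second. It was higher in 5, 4 and 4 of 8 pairs in SE21s, LY2186 and MH86. Among all genes 25.5% were called higher and 16.5% lower. Of 9 heat shock genes 3 fell and 1, HSP81-1, rose (median -0.19), a share of calls near the 42% of all genes. HSFA2d (LOC_Os03g06630), a heat shock factor, fell by 0.25 ± 0.07, HSP101 (LOC_Os05g44340), a disaggregating chaperone, by 0.26 ± 0.08 and HSFB2b (LOC_Os08g43334) by 0.32 ± 0.12 (adjusted p = 0.0309), from medians of 0.930 to 0.393 FPKM. No heat shock gene was lower without SE21s or without clock hours 15, 18 and 21 together, and 1 was without MH86, without clock hour 15 or 18 and with the mean of the lines. HSP81-1 lost its call after median-ratio scaling and without LY2186, MH86 or clock hour 3, 6, 9, 15 or 21, and 5 genes did not pass.

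The 3 calls among 8 defence genes were WRKY transcription factors, and all were lower. The share of calls in this list was near the 42% of all genes called (25.5% higher, 16.5% lower). WRKY45 (LOC_Os05g25770), a regulator of salicylic acid-dependent defence, had a median of 43.9 FPKM (13.5 to 132) on the first day and 18.2 FPKM (7.99 to 121) on the second. It was lower in 22 of 24 pairs, with all 8 pairs of SE21s and all 8 of MH86 lower, by -1.0 ± 0.16 (adjusted p = 0.000311). WRKY62 (LOC_Os09g25070) and WRKY76 (LOC_Os09g25060), which are known as repressors of defence, fell from low levels, from medians of 3.68 to 1.14 FPKM (by 1.1 ± 0.25 on the log2 scale) and 1.25 to 0.449 FPKM (by 0.83 ± 0.17). The pathogenesis-related genes PR1b (0.14), PR10a (-0.04) and PR10b (0.35) and the salicylic acid receptor gene NPR1 (0.14) did not pass. Nor did WRKY71 (0.16), another WRKY gene, which was higher in 14 of 24 pairs. These 3 calls were also made in a fit without the pairs, where 1560 genes were called in all, and 2 were made without clock hours 15, 18 and 21. Among 5 diterpenoid phytoalexin genes KSL7 (LOC_Os02g36140), a diterpene cyclase gene, rose by 0.18 ± 0.05, a call lost without LY2186 or MH86.

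Hormone and stress lists had smaller shares of calls than the 42% of all genes called (25.5% higher, 16.5% lower). Of 12 genes of abscisic acid and drought response, P5CS1 (LOC_Os05g38150), of proline synthesis, rose by 0.34 ± 0.09, and NAC6 (LOC_Os01g66120), a stress-induced NAC factor, by 0.20 ± 0.07. NCED5 (LOC_Os12g42280), of abscisic acid synthesis, fell by 0.29 ± 0.12 (adjusted p = 0.0467), and 9 genes did not pass. NCED5 lost its call in 13 of 22 alternatives and stood at -0.10 without MH86, and NAC6 lost its call in 10 of 23. Of 14 jasmonate genes JAR1 (LOC_Os05g50890), which makes the active conjugate, rose by 0.31 ± 0.07, and JAZ1 (LOC_Os04g55920), a repressor of the response, and MYC2 (LOC_Os10g42430), its activator, fell by 0.17 ± 0.06 and 0.22 ± 0.08. JAZ1 lost its call in 8 and MYC2 in 9 of 23 alternatives, and no jasmonate gene was lower without clock hour 3, without clock hour 15, without LY2186 or with the mean of the lines. Of 7 type-A response regulators, which dampen cytokinin signalling, RR1 (LOC_Os04g36070) fell by 0.25 ± 0.08 and RR2 (LOC_Os02g35180) by 0.34 ± 0.09. Of 5 DREB genes DREB2B (LOC_Os05g27930), of heat and drought responses, rose by 0.15 ± 0.06 (adjusted p = 0.0336) and lost the call in 13 of 23 alternatives, among them median-ratio scaling and leaving out any line. Without MH86 no gene of abscisic acid response rose, 1 jasmonate gene fell and no type-A response regulator was called.

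Single genes of other lists stood out in size. PHO2 (LOC_Os05g48390), a ubiquitin-conjugating enzyme that restrains phosphate uptake, rose from a median of 30.5 FPKM (9.08 to 84.7) to 55.0 FPKM (27.5 to 108), in 22 of 24 pairs, by 0.79 ± 0.16 (adjusted p = 0.000773). SPX2 (LOC_Os02g10780), a phosphate sensor, fell by 0.22 ± 0.08, and the other 2 phosphate genes did not pass. The catalase CATB (LOC_Os06g51150) rose by 0.46 ± 0.09 and the ascorbate peroxidase APX1 (LOC_Os03g17690) fell by 0.23 ± 0.07. SPX2 lost its call in 11 of 23 alternatives, including the omission of any line, and APX1 without LY2186, MH86 or clock hour 0 or 18. All 3 fermentation genes tested passed as higher, against 25.5% of all genes. Without SE21s 1 of the 3 did, and none did without clock hours 15, 18 and 21 together. The alcohol dehydrogenases ADH1 (LOC_Os11g10480), from a median of 18.1 to 25.4 FPKM, and ADH2 (LOC_Os11g10510) rose by 0.54 ± 0.13 and 0.32 ± 0.09, and the pyruvate decarboxylase PDC2 (LOC_Os03g18220) by 0.18 ± 0.07. PDC2 lost its call in 10 of 23 alternatives, among them median-ratio scaling. None of 7 plasma membrane aquaporin genes was called over the 24 pairs by limma (the smallest adjusted p was 0.0531, for PIP2;6), while after quantile scaling 1 was higher and 1 lower, and 1 was lower after median-ratio scaling or without clock hour 6 or 15. Of 3 reference genes UBQ5 (LOC_Os01g22490) fell by 0.23 ± 0.06, and ACT1 (0.09) and eEF1a (0.06) did not pass.

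Outside the lists, among genes that moved the same way in at least 22 pairs, the largest rises were LOC_Os08g02160, by 1.13 ± 0.24, and LOC_Os05g35140, by 1.08 ± 0.18. The largest falls were LOC_Os07g41410, by -1.17 ± 0.18 and lower in 23 pairs, and LOC_Os06g12660, by -0.89 ± 0.16. LOC_Os07g41410 went from a median of 66.0 FPKM to 25.3 FPKM.

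Whether the lines shared the day change was asked next. Within single lines 839 genes were called in LY2186 (4.98%; 491 higher, 2.91%, and 348 lower, 2.06%), 831 in MH86 (4.93%; 459 higher, 2.72%, and 372 lower, 2.21%) and 0 in SE21s (0%), where 2387 had an unadjusted p below 0.05 by limma. Of these calls 164 were shared by LY2186 and MH86, 19.5% of the first list and 19.7% of the second, all in the same direction. Leaving out single clock hours moved the counts from 5 (without hour 3) to 2237 in LY2186 and from 2 (without hour 18) to 1865 in MH86, and without the filter on low values they were 250 and 205. In LY2186 the higher share of the calls was 58.5% as deposited, 51% after median-ratio and 69.3% after quantile scaling. The difference between lines itself gave 0 calls (0%) by limma's F test, with 645 genes at an unadjusted p below 0.05. None of the 3 pairwise differences gave one, with 392 to 900 genes at that level. The day change was thus not shown to differ between lines, which does not show that it was equal. For SE21s, LY2186 and MH86 in turn, BIP1 averaged 0.29, 0.39 and 0.54, and WRKY45 averaged -0.93, -1.08 and -0.99. Within LY2186 alone 8 of 16 antenna and photoprotection genes fell, and within MH86 alone 4 of 5 genes of the unfolded protein response rose.

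**Figure D3:**
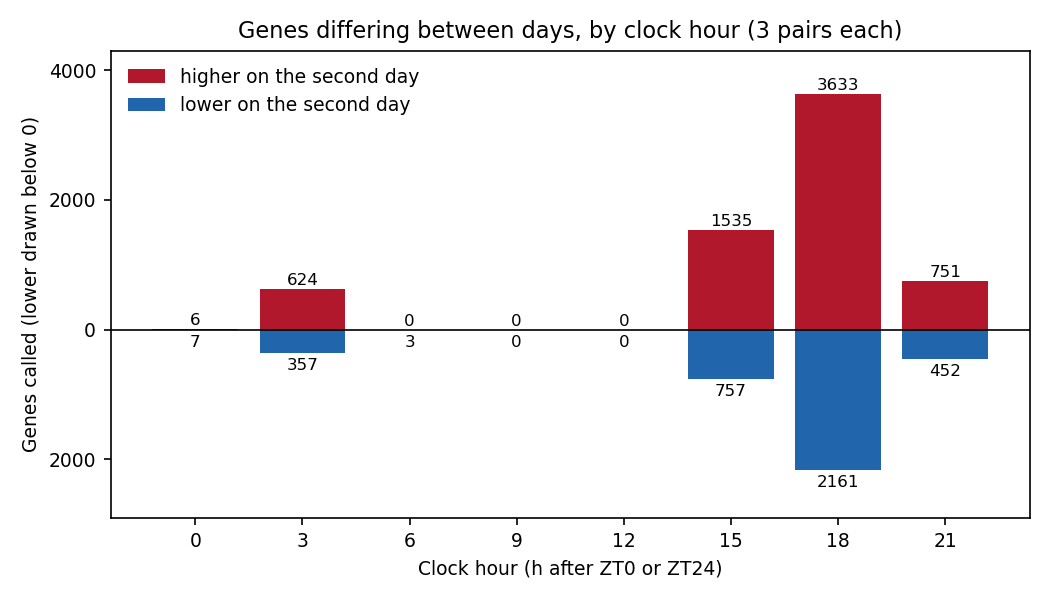
Number of genes called at each clock hour (h) by limma at an adjusted p below 0.05, with 3 pairs per hour, 1 from each line. Bars above 0 count genes higher on the second day and bars below 0 genes lower. The highest bars are at clock hour 18, with 3633 higher and 2161 lower, and clock hours 6, 9 and 12 have 3 calls or fewer.

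Most calls by clock hour fell between clock hours 15 and 21. At clock hour 18, 5794 genes were called (34.4%), 3633 higher (21.6%) and 2161 lower (12.8%). At clock hour 15 there were 2292 (13.6%), 1535 higher (9.11%) and 757 lower (4.49%). At clock hour 21 there were 1203 (7.14%), 751 higher (4.46%) and 452 lower (2.68%), and at clock hour 3 981 (5.82%), 624 higher (3.7%) and 357 lower (2.12%). At clock hours 0 and 6 there were 13 (0.0771%; 6 higher, 0.0356%, and 7 lower, 0.0415%) and 3 (0.0178%, all lower), and at clock hours 9 and 12 0 (0%) by limma, with 717 and 917 genes at an unadjusted p below 0.05. Of the genes called at clock hour 15, 74.9% were also called at clock hour 18, 1716 of 1717 in the same direction, and they made up 29.6% of the calls there. The hours share 1 estimate of the spread per gene. The test of a difference between the 8 clock hours called 399 genes (2.37%), among the members CAB1R, LHCA1, LHCA2, RBCS4 and SSIVb.

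The counts by clock hour depended on single lines and settings. At clock hour 18 no gene was called without LY2186, and at clock hours 3 and 21 none without SE21s. At clock hour 15 1 was called without clock hour 6 and 2 with no filter on low values, against 4082 without clock hour 12. With no filter 55 were called at clock hour 3. The median of all genes was 0.12, 0.10 and 0.08 at clock hours 15, 18 and 21 as deposited and 0.00, -0.03 and 0.00 after median-ratio scaling. The share of higher calls at these hours accordingly changed from 67%, 62.7% and 62.4% to 45.6%, 44.8% and 45.2%, and after quantile scaling it was 56.4%, 56.5% and 37.7%. At clock hour 3 it was 63.6%, 56% and 75.9% in the same order, and at clock hour 0, with few calls, 46.2%, 60% and 33.3%. Relative depth of the clock hour 18 libraries was 2.19, 2.12 and 2.14 on the first day and 2.18, 1.91 and 1.5 on the second (lines in the order SE21s, LY2186, MH86). The top 3 loci took 28.8% to 40.1% of the FPKM sums on the first day and 47% to 68.6% on the second. As given above, the ZT42 libraries of LY2186 and MH86 were most like ZT21 of the first day, not ZT18. The part of these values and of this likeness in the counts was not tested.

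**Figure D4:**
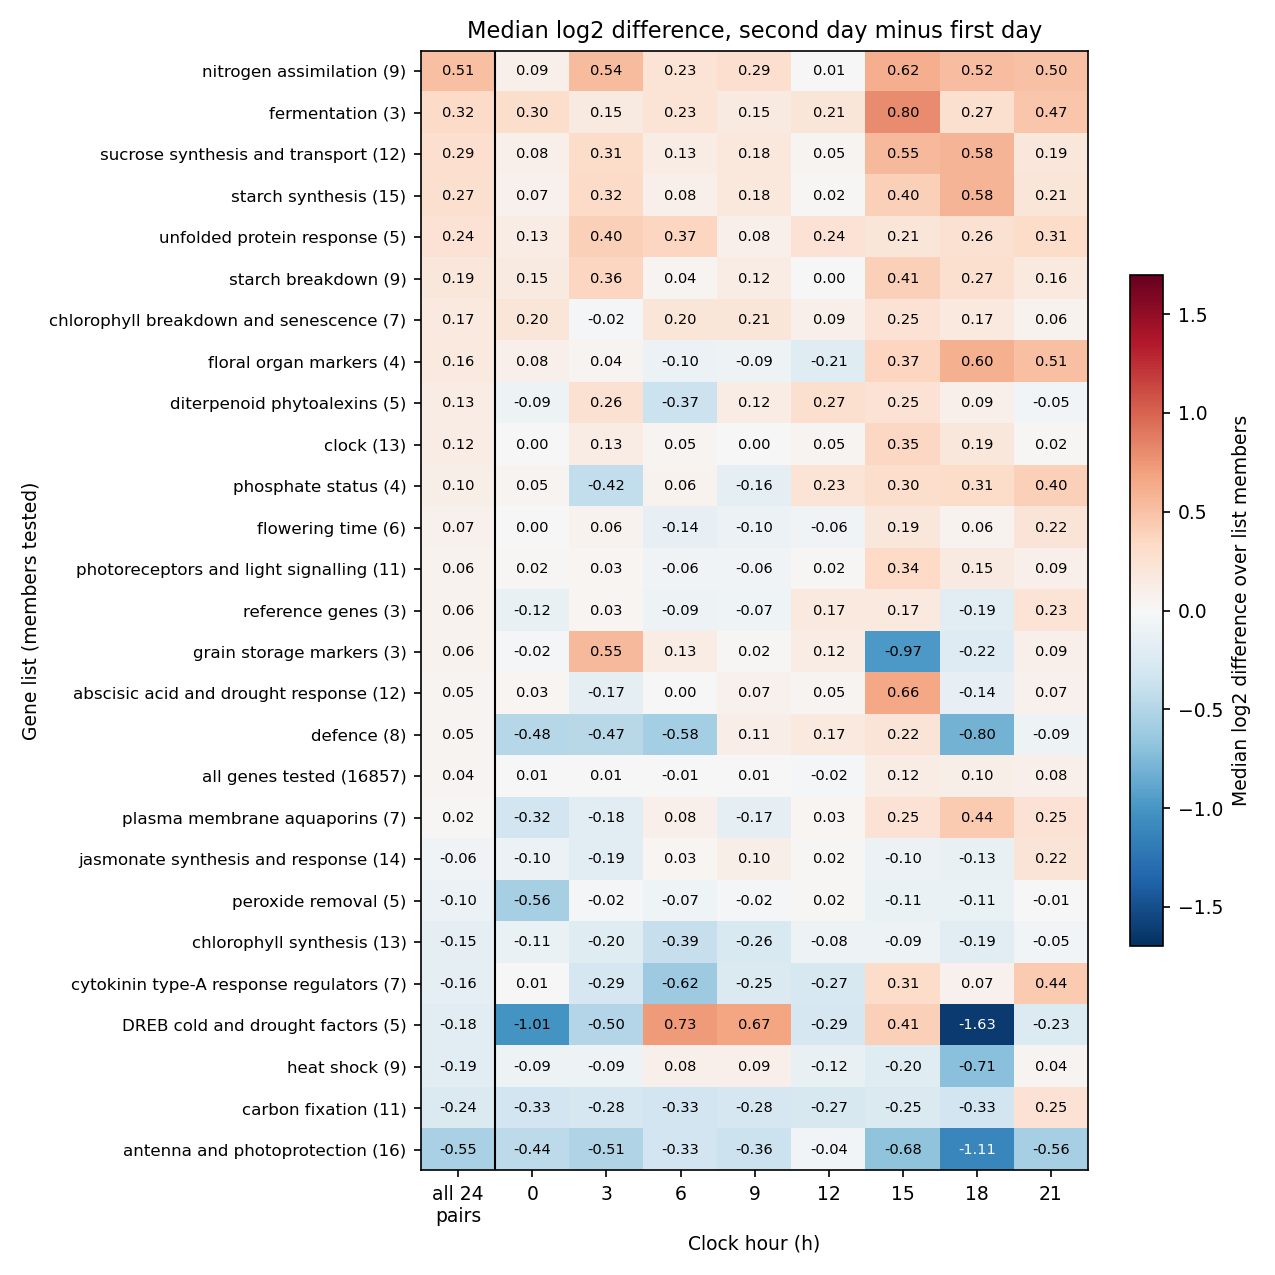
Median log2 difference (second day minus first day) over the tested members of each list, for all 24 pairs and for each clock hour (h), with the number of members in brackets. Red is higher and blue lower on the second day. At clock hour 18 the antenna list is at -1.11 and the starch synthesis and sucrose lists are at 0.58, while all genes are at 0.10.

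At clock hour 18 the calls among antenna genes were lower and those among starch, sucrose and nitrogen genes higher. Of all genes 21.6% were called higher and 12.8% lower at this hour. The ZT42 libraries of LY2186 and MH86 were most like ZT21 of the first day (r of 0.948 and 0.951). With ZT18 their r was 0.926 and 0.915, while ZT42 of SE21s was most like ZT18 (0.959). The part of this likeness in the differences at clock hour 18 was not tested. Without LY2186 none of the calls of this hour was made. Without MH86 3 starch synthesis genes, 1 sucrose gene, 1 nitrogen gene and no heat shock or aquaporin gene were called. Of 16 antenna and photoprotection genes 11 fell and 0 rose, with a median of -1.11 (-1.21 relative to all genes, -1.19 after median-ratio scaling). Of 15 starch synthesis genes 9 rose and 0 fell (0.58, or 0.48 relative to all genes), of 12 sucrose genes 7 rose (0.58) and of 9 nitrogen genes 4 rose (0.52). LHCA2, chosen after its values were seen, went from 255 to 107 FPKM in SE21s, from 86.9 to 24.2 FPKM in LY2186 and from 42.5 to 7.98 FPKM in MH86. All 3 lines were lower on the second day, though the days overlap. GS1;2 went from 16.4 to 33.5 FPKM in SE21s, from 8.5 to 26.4 FPKM in LY2186 and from 6.23 to 36.3 FPKM in MH86. Every second-day value of GS1;2 at that hour lay above every first-day value. NAP also rose there, by 1.35 ± 0.19 (adjusted p = 0.00114), from 10.1 to 22.9 FPKM in SE21s, 6.86 to 14.8 FPKM in LY2186 and 10.2 to 38.5 FPKM in MH86. Of 9 heat shock genes 5 fell (median -0.71), and of 7 aquaporin genes, which carry water across the plasma membrane, 3 rose (0.44). The floral marker MADS16 rose too (0.97), from 9.77, 5.68 and 5.06 FPKM to 20.2, 12.1 and 9.63 FPKM, and the median of the floral list was 0.6. Its part in the other changes was not tested.

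Of 3 DREB1 genes, which encode cold-induced transcription factors, 2 were lower at clock hour 18 on the second day. DREB1H (LOC_Os09g35020) stood at 33.9 FPKM in SE21s, 48.9 FPKM in LY2186 and 5.75 FPKM in MH86 on the first day and at 6.05, 1.43 and 1.60 FPKM on the second. It was lower in all 3 lines, by -2.88 ± 0.61 (adjusted p = 0.00376), and the call was lost without LY2186. DREB1A fell by 1.63 ± 0.61 (adjusted p = 0.0452), whereas DREB1B, at -2.64 ± 1.07, did not pass (adjusted p = 0.0619). ABA8ox1, an abscisic acid catabolism gene chosen after its values were seen, fell from 38.8 to 13.9, 116 to 7.05 and 23.4 to 7.89 FPKM. Over all 24 pairs none of these 4 was called, with DREB1H at -0.25 ± 0.31.

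**Figure D5:**
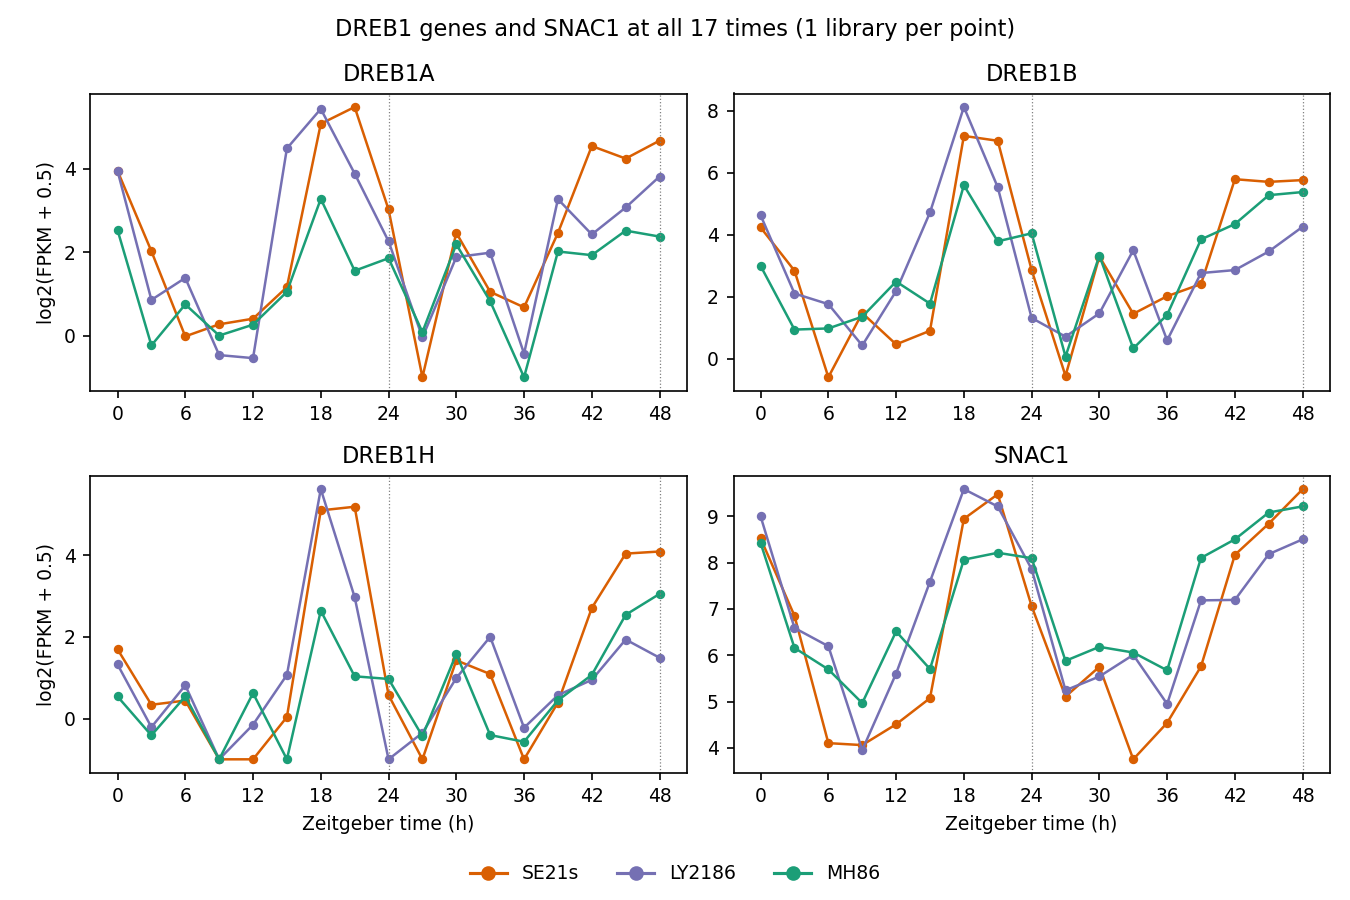
Levels of DREB1A, DREB1B, DREB1H and SNAC1 as log2(FPKM + 0.5) against Zeitgeber time in h, with 1 library per point and colours for the lines. Dotted lines mark 24 h and 48 h. The DREB1H peak near 18 h, at 33.9, 48.9 and 5.75 FPKM, is lower 24 h later, at 6.05, 1.43 and 1.60 FPKM.

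Other clock hours had their own named genes. At clock hour 15 WRKY62 fell from 11.8 to 1.80 FPKM in SE21s, from 11.9 to 0.53 FPKM in LY2186 and from 7.33 to 0.709 FPKM in MH86, a difference of -2.90 with no overlap between the days. That call was lost without LY2186, without MH86, without clock hour 0 or 6 and with no filter on low values. Of the antenna list 6 fell there (median -0.68), and PHYA, CRY1b, CRY2 and PIL11 rose in the light signalling list. Among all genes 9.11% were called higher and 4.49% lower at clock hour 15. The grain storage gene GluA2 fell there (-0.97), and its part in these values was not tested. At clock hour 3 the starch genes SSIVb (LOC_Os05g45720) and DPE2 rose by 0.88 and 0.89, SSIVb from 5.13 to 11.9 FPKM in SE21s, 7.06 to 13.9 FPKM in LY2186 and 10.5 to 15.7 FPKM in MH86. All 3 second-day values of SSIVb lay above all 3 first-day values. DPE2 lost that call in 8 of 18 alternatives, and both lost it without SE21s or LY2186. At clock hour 21 GS1;2 rose by 1.19, from 23.9 to 83.0, 28.5 to 60.8 and 22 to 36.3 FPKM, again without overlap, but missed the threshold without SE21s or LY2186. LHY also passed at that hour, by 0.69 ± 0.19 (adjusted p = 0.0325), from 1690 to 1770 FPKM in SE21s, from 189 to 453 FPKM in LY2186 and from 55.0 to 92.5 FPKM in MH86. All 3 lines were higher on the second day, SE21s least.

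The day change was then compared between clock hours 12 to 21 and clock hours 0 to 9. The difference called 855 genes (5.07%), 686 with a higher (4.07%) and 169 with a lower change (1%) at the later hours. This count was 0 without MH86, 3398 without clock hour 12 and 303 with no filter on low values, and the higher share was 80.2% as deposited, 65.5% after median-ratio and 59.6% after quantile scaling. GS1;2 differed by 0.92 ± 0.22 (adjusted p = 0.0234), with changes of 0.18 to 0.29 at clock hours 0 to 9 and 0.35 to 1.68 at clock hours 12 to 21. RBCS4 (LOC_Os12g19470), a Rubisco small subunit gene with similar copies, differed by 0.74 ± 0.18, with changes of -0.54 to -0.10 at the earlier and -0.33 to 0.88 at the later hours. CRY1b (LOC_Os04g37920), a blue light receptor gene, differed by 0.38 ± 0.10, the flowering-time MADS-box gene MADS51 (LOC_Os01g69850) by 0.34 ± 0.09 and the reference gene ACT1 (LOC_Os03g50885) by 0.30 ± 0.08. After quantile scaling RBCS4, ACT1, CRY1b and MADS51 no longer passed. None of these 5 passed without LY2186 or MH86, or without clock hour 0, 6, 15, 18 or 21. No antenna gene was called in this difference.

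Clock hour 0 was sampled once more at ZT48, and ZT48 minus ZT24 called 82 genes (0.486%), 22 higher (0.131%) and 60 lower (0.356%). Both comparisons at clock hour 0 share the ZT24 libraries. DREB1H, the only list member called, went from 0.991 FPKM at ZT24 to 16.6 FPKM at ZT48 in SE21s and from 1.46 to 7.82 FPKM in MH86, and in LY2186 it is listed at 0 at ZT24 and stood at 2.31 FPKM at ZT48. The difference was 2.70 ± 0.60 (adjusted p = 0.0489), against -1.01 for ZT24 minus ZT0, where the levels at ZT0 were 2.75, 2.01 and 0.955 FPKM. The antenna list had a median of -0.35 at ZT48 minus ZT24 and -0.44 at ZT24 minus ZT0, with 0 calls in both, and the nitrogen list 0.36 and 0.09. The count was 0 without SE21s and 422 without LY2186, and its higher share was 26.8%, 28.7% and 10.5% under the 3 scalings.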

How the data were processed

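Messenger RNA was sequenced from 51 strand-specific libraries, per the labels. The deposited table gives FPKM, fragments scaled by the authors to transcript length and library size, for 34653 identifiers, of which 34570 are rice loci, made with TopHat2 and Cuffdiff per the submitters' processing notes. No version, genome build, annotation or rule for multi-mapping fragments is given in the sources used here, and the reference table (assembly ASM3414082v1) matched 0 identifiers. Depth per library is unknown, so no counting intervals are given.

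Values were analysed as log2(FPKM + 0.5) for genes averaging 1 FPKM or more over the 48 libraries. Models used limma 3.58.1 and R 4.3.3 (trended, robust prior, two-sided, Benjamini-Hochberg at 0.05), with the pair of line and clock hour as a block. Same-pair libraries deviated together from their day means (r of 0.538 to 0.825, median 0.72); the pairing comes from the labels. The steps were run on simulated data with independent noise per library, so noise shared by the lines of a clock hour was not covered. Exact zeros with at least 2 values of 10 FPKM or more at the adjacent times or the same hour of the other day were called doubtful (425 values in 124 genes) and kept. Where nothing says that libraries came from separate plants, p-values measure only the spread between libraries, which may be technical.

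Named are up to 3 called members per list with the smallest adjusted p, LHY and GI, up to 5 for the difference between lines and between later and earlier clock hours, up to 2 per clock hour with the largest difference, and 2 genes outside the lists in each direction. The comparison, members and lists were chosen with earlier results of these data known. PIL15, RBCS5 and PUL were not analysed here, and results of 1 further gene are not reported here. Alternatives were pseudocounts of 0.1 and 1, filters of 0 and 5, 2 scalings, doubtful zeros set missing, no pairs, line means, another prior, and leaving out each line and clock hour. Leaving out clock hours 15, 18 and 21 together, or the SE21s pair at clock hour 12, was added after seeing the data.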

Additional observations from a re-analysis of the deposited data

Results flagged for a closer look

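Of 213 groups of 8 pair differences (71 named genes in 3 lines), 7 held a pair set apart from the other 7 by Dixon's criterion, where chance alone flags about 1 group in 20. In MH86 at clock hour 18, Hd3a rose by 2.94 (log2, next highest pair 0.93) and NAP by 1.86 (next 0.55), while APX1 stood at -1.03 (next lowest -0.31). In LY2186 at the same hour BIP1 stood at 0.98 (next 0.50). At clock hour 12 cpFBPase stood at 0.72 in SE21s (next 0.02) and at -0.70 in MH86 (next -0.38). JAZ1 in SE21s stood at 0.20 at clock hour 21 (next -0.08).

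The day change of 5 members differed between clock hours 12 to 21 and 0 to 9 by limma's test of the difference: RBCS4 by 0.74, GS1;2 by 0.92, ACT1 by 0.30, CRY1b by 0.38 and MADS51 by 0.34 (log2, later minus earlier). Of 18 alternatives, the call was lost in 9 for GS1;2, 10 each for RBCS4 and ACT1, 11 for CRY1b and 12 for MADS51. None of the 5 passed without LY2186 or MH86, or without clock hour 0, 6, 15, 18 or 21.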

How the results depend on the processing

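Counts of called genes were recomputed under each alternative, and 200 of 342 values lay within 1.5 times the reported ones. Over all lines the count was 1560 with no replicate block (no pairing of libraries by line and clock hour), 3433 for the mean of the lines (8 pairs), 336 at 1.5-fold and 1337 without clock hours 15, 18 and 21; leaving out a line or clock hour gave 3304 to 7721. With no replicate block LY2186 and MH86 had 0 calls each, as had the antenna, chlorophyll synthesis and carbon fixation lists, and the starch synthesis, sucrose and nitrogen lists had 1 each. Single lines gave 0 to 9 (SE21s), 5 to 2237 (LY2186) and 2 to 1865 (MH86) when a clock hour was left out, line differences 0 to 0 (F test), 0 to 0, 0 to 1 and 0 to 2, later minus earlier hours 0 to 3398, clock hours 0, 3, 6, 9, 12, 15, 18 and 21 gave 0 to 22, 0 to 2042, 0 to 1, 0 to 2, 0 to 1, 1 to 4082, 0 to 6422 and 0 to 1879, their F test 0 to 1120 and ZT48 0 to 422. A pseudocount of 0.1 gave 8 calls at clock hour 0 and 0 at 6, and a pseudocount of 1 gave 1 in SE21s, 25 at clock hour 0, 1 at 9 and 48 at ZT48. No filter gave 2 calls in SE21s, 250 in LY2186, 205 in MH86, 303 for later minus earlier hours, 35, 55, 0, 1, 2 and 662 at clock hours 0, 3, 6, 9, 15 and 21, 84 for their F test and 51 at ZT48, and a filter of 5 FPKM gave 2 at clock hour 9. Median-ratio scaling gave 1 call in SE21s and 25, 1512, 5 and 2 at clock hours 0, 3, 6 and 9. Quantile scaling gave 1766 in LY2186, 1763 in MH86, 473 for later minus earlier hours, 3, 2, 2 and 769 at clock hours 0, 9, 12 and 21, and 38 at ZT48. Without the SE21s pair at clock hour 12 there were 34, 2047, 1, 5 and 3892 at clock hours 0, 3, 9, 12 and 15. The cause of these shifts was not tested, beyond the fewer libraries or genes that some alternatives use.

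Among the 71 named genes, no called difference changed direction under the alternatives run; for the other genes only counts were compared. Members without a call over all pairs did: RBCS4 to 0.0662 under quantile scaling and, from -0.168 to 0.0576, when a clock hour or line was left out, DREB1H from -0.553 to 0.13 likewise, and, without clock hours 15, 18 and 21, DREB1H to 0.14, LHY to -0.0721, ACT1 to -0.00206 and CRY1b to -0.0620. Fragment counts behind each value are unknown, which limits what low genes such as WRKY76, WRKY62, HSFB2b and DREB1H show, and 3 pairs per clock hour from 1 pair of days leave the hour-specific counts the least certain.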
